A study of Homo sapiens with 8 samples.

Results

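The 5 genes described here, EHMT2, KAT2A, RFWD3, STK38 and STK38L, encode chromatin enzymes, a ubiquitin ligase and protein kinases, and each carried a series of ORCA peaks in early G1. The peaks were chosen by position, as those that share at least 1 bp with a window around the gene body in the hg19 build. The windows lay on chromosome 6 from 31847000 to 31866000 (EHMT2), chromosome 17 from 40264000 to 40275000 (KAT2A), chromosome 16 from 74655000 to 74701000 (RFWD3), chromosome 6 from 36461000 to 36516000 (STK38) and chromosome 12 from 27396000 to 27479000 (STK38L). Together they span 214 kb and held 50 of 10666 early ORCA peaks, 1 of 10341 mid peaks, 0 of 1328 late peaks and 12 of 74497 peaks of methylated DNA. The genes were chosen from the early peaks themselves. The number and score of the early peaks and their absence from the later stages are therefore given as a description, without a test.

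ORCA chromatin immunoprecipitation and sequencing (ChIP-seq) was done in U2OS, a human osteosarcoma cell line, synchronised in early, mid or late G1. Methylated DNA immunoprecipitation (MeDIP-seq) was done in U2OS with no stage in the labels. Each of the 4 groups was 1 sample with no further treatment or genotype in the labels, and the way the cells were synchronised is not stated there. A difference between stages therefore has no replicate check, and the read depth behind each list is unknown. The files give for each peak a start, an end and the authors' score. The score was used to order peaks within a list, in medians and correlations, and as a minimum for selecting peaks. The same minimum was applied to every list, although a score need not mean the same in lists of unlike depth.

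ORCA, also called LRWD1, binds the origin recognition complex, which marks where DNA replication can begin, and is known to sit on repressed chromatin. EHMT2, also called G9a, methylates H3K9 on histones, a mark of repressed chromatin, and ORCA is known to associate with methyltransferases of this kind. KAT2A, also called GCN5, acetylates histones as the catalytic subunit of co-activator complexes such as SAGA. RFWD3 is a ubiquitin ligase that acts with RPA at stalled replication forks. STK38 and STK38L, also called NDR1 and NDR2, are a pair of closely related kinases of the NDR and LATS family. These are properties of the proteins, whereas the peaks lie on the DNA of their genes.

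The sequences before the start sites are shown because a MeDIP peak needs methylated CpG, and the number of CpG that could carry methylation differs between these genes. RefSeq promoter sequences were matched for 4 of the 5 genes, STK38 being the exception. Each line gives the 250 bases before the annotated start, 5′ to 3′ on the strand of the gene, with every CG in capitals. Their coordinates are of GRCh38.p14 and not of hg19, so that they were not laid over the peaks.
EHMT2, GRCh38.p14 chr6:31897699-31897948, minus strand: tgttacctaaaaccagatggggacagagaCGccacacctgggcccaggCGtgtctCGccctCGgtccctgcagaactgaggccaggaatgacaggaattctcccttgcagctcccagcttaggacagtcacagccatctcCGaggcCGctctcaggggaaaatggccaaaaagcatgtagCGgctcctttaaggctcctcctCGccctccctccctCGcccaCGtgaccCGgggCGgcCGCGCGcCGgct
KAT2A, GRCh38.p14 chr17:42121368-42121617, minus strand: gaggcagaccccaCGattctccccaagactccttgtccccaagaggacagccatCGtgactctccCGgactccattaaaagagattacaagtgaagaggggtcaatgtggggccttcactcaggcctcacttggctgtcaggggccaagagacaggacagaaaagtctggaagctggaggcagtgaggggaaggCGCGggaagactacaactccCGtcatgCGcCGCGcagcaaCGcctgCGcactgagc
RFWD3, GRCh38.p14 chr16:74666878-74667127, minus strand: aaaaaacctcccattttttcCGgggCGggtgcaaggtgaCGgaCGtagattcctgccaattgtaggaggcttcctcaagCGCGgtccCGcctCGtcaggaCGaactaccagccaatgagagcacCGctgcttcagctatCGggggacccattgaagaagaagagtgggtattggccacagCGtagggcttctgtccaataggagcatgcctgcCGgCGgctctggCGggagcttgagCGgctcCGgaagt
STK38L, GRCh38.p14 chr12:27244036-27244285, plus strand: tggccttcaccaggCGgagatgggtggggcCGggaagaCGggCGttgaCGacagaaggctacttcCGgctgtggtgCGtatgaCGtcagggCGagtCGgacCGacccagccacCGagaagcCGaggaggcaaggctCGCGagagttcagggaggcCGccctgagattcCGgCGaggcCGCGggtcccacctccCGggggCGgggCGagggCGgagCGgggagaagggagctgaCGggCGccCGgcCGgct
CG reads the same on both strands, and 93.9% of 35116 promoters of this length held at least 1. The EHMT2 sequence held 16, the KAT2A sequence 11, the RFWD3 sequence 17 and the STK38L sequence 29, against a median of 11 over all promoters. At least as many as in STK38L were found in 14.1% of promoters, and at least as many as in KAT2A in 50.3%.

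Each of the 5 genes had 8 to 13 early ORCA peaks, and the later stages were almost without peaks there. To have no mid peak is the usual case, since 86.5% to 97.1% of stretches of these lengths along the chromosomes held none. EHMT2 had 8 early, 0 mid and 0 late peaks. KAT2A had 8 early, 1 mid and 0 late peaks. RFWD3 had 11, STK38 13 and STK38L 10 early peaks, and these 3 genes had 0 mid and 0 late peaks. None of the 50 early peaks overlapped a mid peak, while 32.6% of all early peaks did. None overlapped a late peak, against 8.91% of all early peaks. In all, 66.2% of the early list overlapped neither, a share from which nothing is read for these genes, since they were chosen from such peaks.

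**Figure D1:**
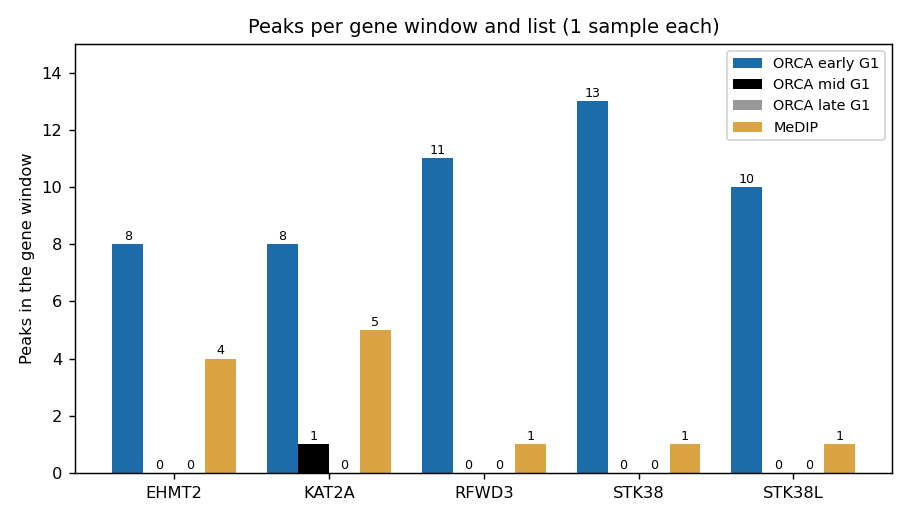
Number of peaks in each gene window (vertical axis) for the ORCA lists of early, mid and late G1 and for MeDIP, with 1 sample each. Early G1 gave 8 to 13 peaks per gene, and the single peak of a later stage was the mid peak at KAT2A.

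The mid and early lists are of similar length, 10341 and 10666 peaks, and the late list is the short one. The nearest mid peak lay 24584 bp from the EHMT2 window, 22396 bp from the RFWD3 window, 65940 bp from the STK38 window and 403583 bp from the STK38L window. The nearest late peak was 91498 bp from the STK38 window and 218462 bp from the RFWD3 window, and over 1 Mb from the other 3. Early peaks were also sparse around the genes, as over the whole list, where 86.1% to 97.0% of stretches of these lengths held none. The nearest early peak outside a window lay 18812 bp from RFWD3, 36152 bp from EHMT2, 63948 bp from KAT2A, 107574 bp from STK38 and 167086 bp from STK38L. Extending the windows by 5 kb on each side added no early peak, so the series began and ended within the window at all 5 genes.

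EHMT2, the H3K9 methyltransferase gene, had its early peaks in 14293 bp of the 19 kb window. From low to high coordinates their scores were 59.1, 84, 251, 130, 889, 161, 132 and 391.6. The highest was the fifth, from 31855415 to 31856685, which was also the widest with 1271 bp and stood at rank 64 of the early list. Per the RefSeq strand, transcription runs from high to low coordinates here, so the peak nearest the start of the gene was the last, from 31863893 to 31864636, with the second highest score. Widths ranged from 370 to 1271 bp with a median of 718.5 bp. The gaps between neighbours were 191 to 3161 bp with a median of 757 bp, and the peaks covered 30.5% of the window.

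KAT2A, the acetyltransferase gene, is the shortest of the 5 windows and was the most fully covered. Its early scores were 367, 173, 140, 85.2, 790, 253, 192 and 2570.5 from low to high coordinates. The last, from 40272548 to 40273496, was the second highest of the 50 and stood at rank 20 of the early list. It was again the peak nearest the start of the gene, which is transcribed towards lower coordinates. Widths ranged from 411 to 1663 bp with a median of 700 bp, and the median gap was only 30 bp, with the last pair 1 bp apart. With 55.2% of the window covered, the 8 peaks were nearly a continuous stretch, and their number depends on where the caller divided it.

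The mid peak at KAT2A, from 40274453 to 40274953, did not touch this stretch. It lay 956 bp beyond the last early peak, on the side of the gene start, and had a score of 71.3, near the median of the mid list of 69.95. It lay within a MeDIP peak from 40274085 to 40275475, whose score of 2950 was the highest of the MeDIP peaks in the 5 windows. That place held no early peak.

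RFWD3, the ubiquitin ligase gene, had the highest scores. From low to high coordinates they were 167, 927, 1098, 697, 524, 1483, 289, 57.8, 761, 828 and 3100. The last peak, from 74694642 to 74695458, had a score of 3100, at which the ORCA lists end and which 16 early peaks shared, and was the widest at this gene with 817 bp. Since the gene is transcribed towards lower coordinates, it was the peak nearest the start. Of the 10 highest-scoring peaks of the 5 genes, 6 were at RFWD3, and 8 of its 11 peaks ranked within the first 117 of the early list.
The RFWD3 peaks were short and set apart from each other. Widths ranged from 273 to 817 bp with a median of 460 bp, and all 11 were under 1 kb. The gaps went from 1156 to 8494 bp with a median of 1981 bp, and the 3 longest were those nearest the gene start: 3662, 6976 and 8494 bp. The peaks spanned 37732 bp and covered 11.7% of the window.

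STK38, the NDR1 kinase gene, had the most peaks and the most even widths. The scores were 296, 107, 251, 160, 123, 171, 78.7, 560, 440, 92.7, 631, 66.2 and 347 from low to high coordinates. The highest was the 11th, from 36491914 to 36492392. All 13 peaks were between 308 and 479 bp wide with a median of 429 bp. The first 5 lay close together at the low end of the window, with gaps of 165 to 1070 bp, and the others were 1948 to 11909 bp apart. They covered 9.81% of the window.

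STK38L, the NDR2 kinase gene, had its peaks in the last part of the window only. The gene is transcribed towards higher coordinates, and the first 54495 bp of the 83 kb window, which hold the gene start, had no early peak. The 10 peaks followed in 24913 bp, with scores of 481, 321, 59.03, 732, 260, 160, 184, 184, 225 and 441.4. The highest was the fourth, from 27465437 to 27465784. Widths were 222 to 624 bp with a median of 387.5 bp, the narrowest of the 5 genes, and gaps ran from 144 to 10223 bp with a median of 1347 bp. The peaks covered 4.78% of the window.

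**Figure D2:**
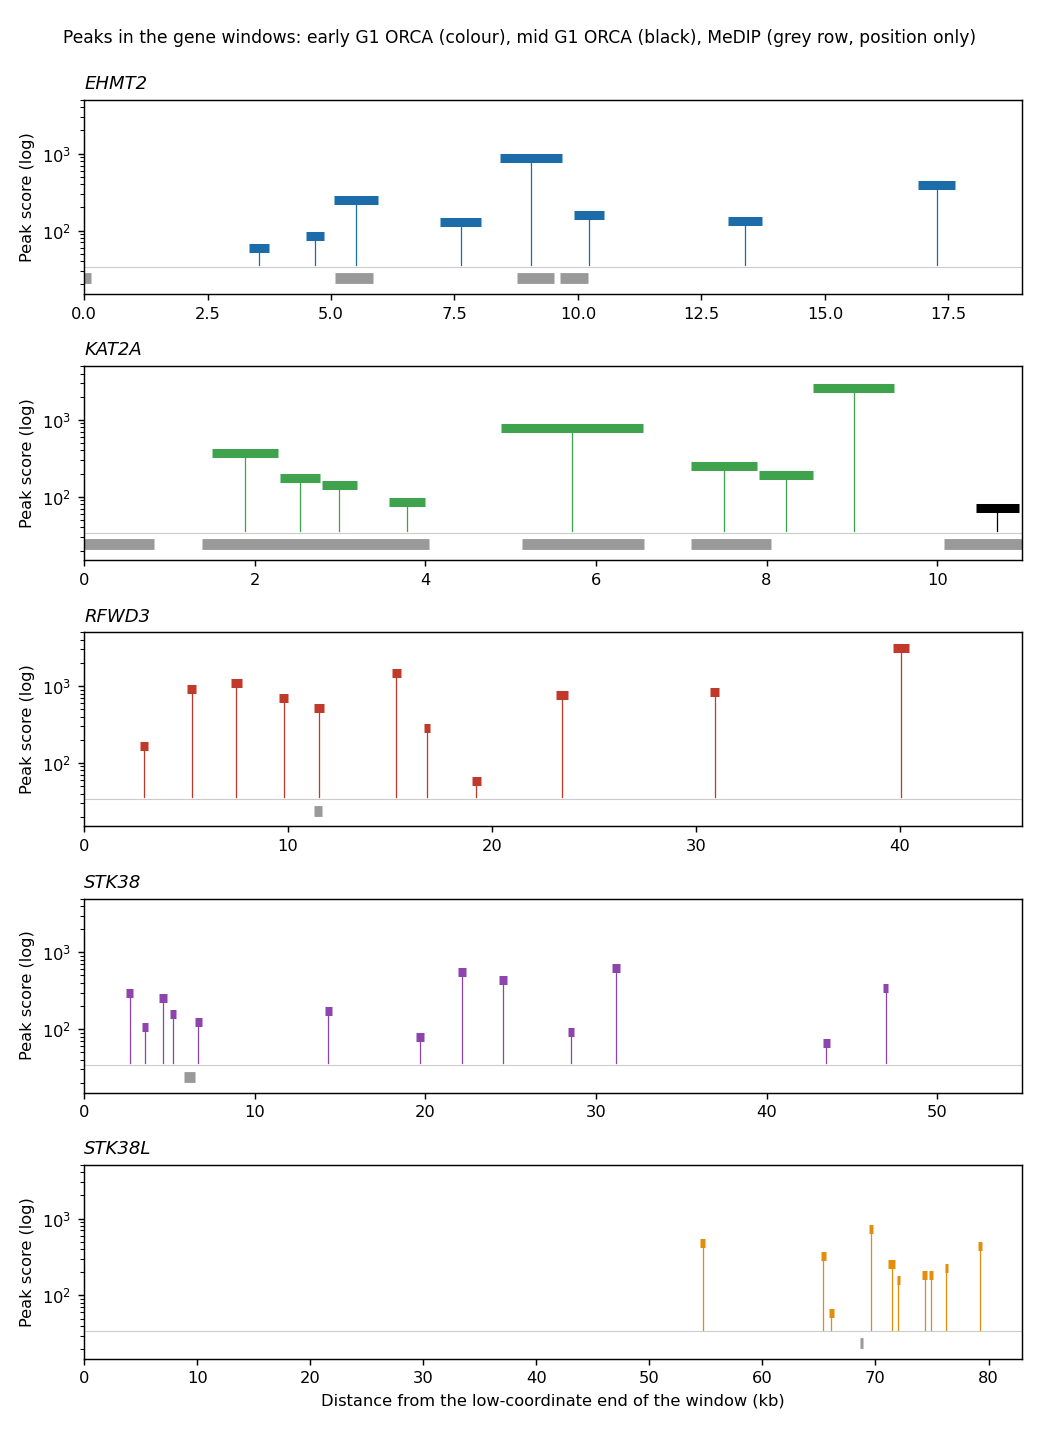
Peaks along each gene window, with the distance from its low-coordinate end in kb on the horizontal axis and the peak score on a logarithmic vertical axis. Thick segments show the width of early G1 ORCA peaks (coloured) and of the mid peak at KAT2A (black), thin lines lead down from them, and the grey row marks MeDIP peaks by position only. The peaks are close to continuous at KAT2A, spread out at RFWD3 and STK38, and gathered in the last part of the window at STK38L.

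The 2 paralogous kinase genes thus had similar numbers, widths and scores of peaks but different layouts. Median scores were 171 at STK38 and 243 at STK38L, with ranges of 66.2 to 631 and 59.03 to 732 that overlap almost fully. The peaks of STK38 were spread over 44693 bp of 55 kb, and those of STK38L over 24913 bp of 83 kb. Across all 5 genes the median score was lowest at EHMT2 (147) and highest at RFWD3 (761), and the ranges of all 5 overlapped.

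**Figure D3:**
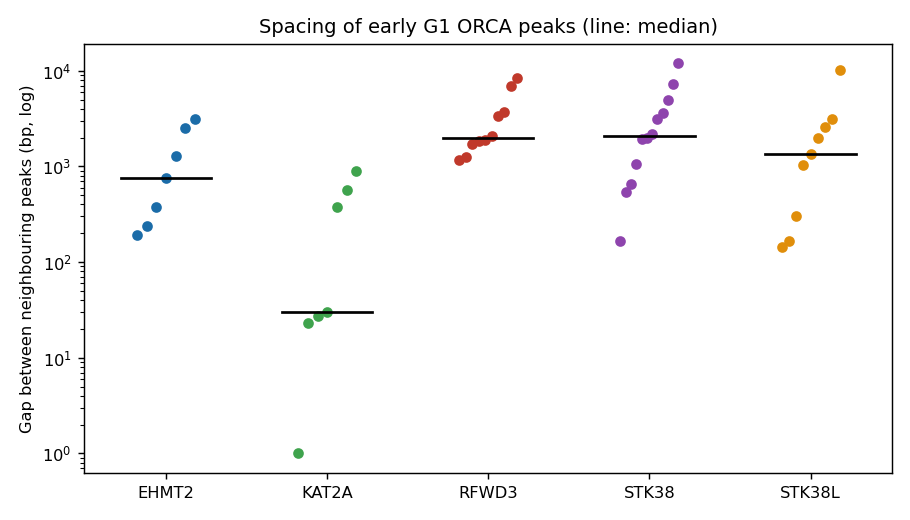
Gap in bp between neighbouring early G1 ORCA peaks (logarithmic vertical axis) for each gene, with each gap as a point, ordered by size, and the median as a line. The median gap was 30 bp at KAT2A and between 757 and 2087.5 bp at the other 4 genes.

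Early peaks at EHMT2 and KAT2A were wider and closer together, by their medians, than those at the other genes. The same genes had the shortest windows, 19 and 11 kb against 46, 55 and 83 kb. Gene length and the kind of gene therefore cannot be told apart here. The 16 peaks at EHMT2 and KAT2A had a median width of 718.5 bp and the 34 peaks at RFWD3, STK38 and STK38L one of 425.5 bp. The ranges overlapped, with 370 to 1663 bp in the first and 222 to 817 bp in the second set. Within the 16 peaks the higher scores went with wider peaks (Spearman's rho 0.8), and within the 34 peaks less so (rho 0.46). Width and score went together over the whole early list too (rho 0.544). These are descriptions across peaks of 1 sample, and neighbouring peaks share fragments and local depth.

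Many peaks of the 5 genes had a high score in a narrow peak, a trait they shared with a few other stretches of the early list. The median score was 252 for the 50 peaks and 63.98 for the whole list, while their median width was 446 bp against 593 bp. A score of at least 100 with a width under 1 kb was found for 40 of the 50 peaks, against 5.45% of the early list. Among peaks with a score of at least 250, the median width was 474 bp for the 27 peaks in the 5 windows and 2045 bp for all 309 in the list. Of the 55 early peaks that scored at least 250 and were under 600 bp wide, 18 lay in the 5 windows, 26 in the similar stretches described below and 11 elsewhere. The scores of the 50 had chosen the genes, so these values carry no test. The limits of 250 and 600 bp were not among the settings varied below.

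**Figure D4:**
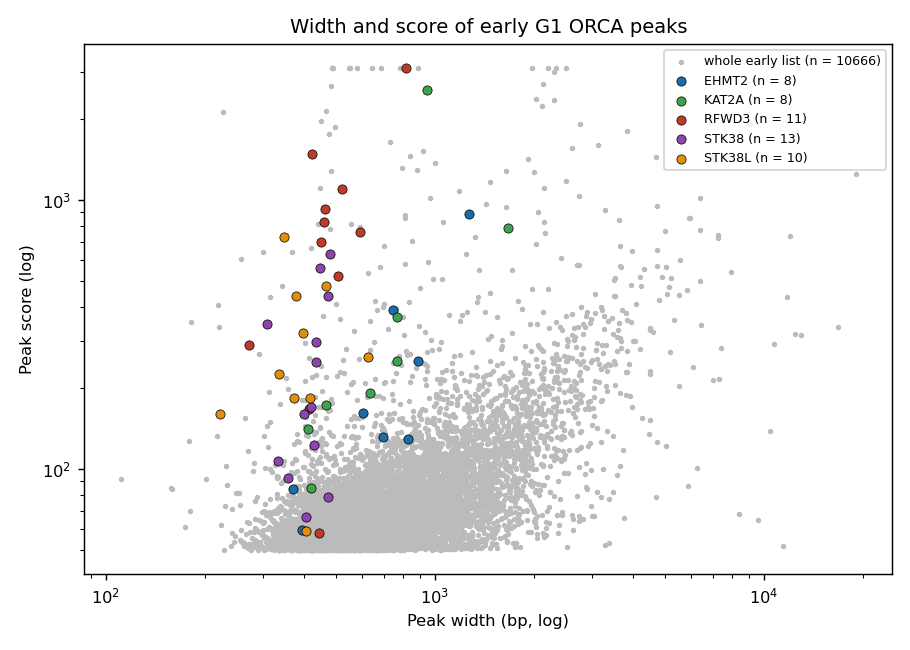
Width in bp (horizontal) and score (vertical) of early G1 ORCA peaks, both axes logarithmic, for the whole list (grey) and the 50 peaks at the 5 genes (coloured). At a given score most of the coloured points lie towards the narrow side of the grey cloud, and the RFWD3 peaks reach from 57.8 to the shared maximum of 3100 at widths of 273 to 817 bp.

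Strong early peaks without a counterpart later are the kind from which the 5 genes were chosen, so their share of these peaks is only a description. Of 50 early peaks in the whole list that scored at least 250 and overlapped no mid or late peak, 27 lay in the 5 windows, 14 in similar stretches described below and 9 elsewhere. With a minimum score of 100, 42 of 396 lay in the 5 windows (10.6%), so the share depends on the minimum score. Of all 309 early peaks with a score of at least 250, 81.6% overlapped a mid and 64.4% a late peak. Among those under 600 bp that lay outside the 5 windows, 37 peaks, the shares were 54.1% (95% Wilson interval 38.4 to 69.0) and 43.2% (interval 28.7 to 59.1).

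The stretches of the early list most like these genes were found by a fixed rule, as runs of 4 or more peaks with a score of at least 100 and a width under 1 kb, with neighbours at most 20 kb apart. The early list held 10 such runs, of which 5 were the 5 genes, with 5 to 10 run peaks each. The other 5 lay on chromosome 1 from 52838686 to 52868081 (15 peaks), chromosome 6 from 88311362 to 88376985 (12 peaks), chromosome 16 from 46723464 to 46731713 (7 peaks), chromosome 7 from 158123665 to 158153571 (5 peaks) and chromosome 2 from 201784826 to 201800659 (4 peaks). The genes at these places were not assigned, since no hg19 gene models were used here. Their median widths of 306 to 672 bp overlapped those of the runs at the 5 genes, 379 to 744 bp.

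Recurrence divided these runs. At the 5 genes, 0 of 40 run peaks overlapped a mid peak and 0 a late peak. The runs on chromosomes 6 and 2 outside the genes were likewise without a mid or late peak. In the run on chromosome 1, 9 of 15 peaks overlapped a mid and 6 a late peak, and in that on chromosome 16 it was 6 and 5 of 7. All 5 peaks of the run on chromosome 7 overlapped both. The mid list held 9 runs and the late list 3 by the same rule, none of them at the 5 genes.

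**Figure D5:**
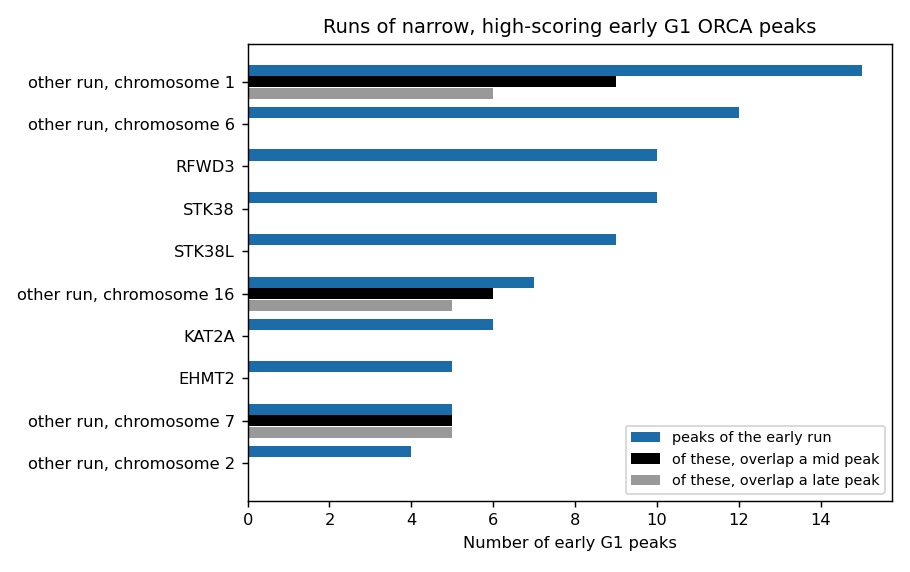
The 10 runs of narrow, high-scoring peaks in the early G1 list, with the number of peaks in each and the number of these that overlap a mid or a late peak on the horizontal axis. The 5 genes and the runs on chromosomes 6 and 2 have no overlap with either list, and the runs on chromosomes 1, 16 and 7 have both.

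MeDIP peaks, which were not used to choose the genes, were most numerous in the KAT2A window. KAT2A had 5 MeDIP peaks, with scores of 151, 1368, 386, 902 and 2950 and widths of 943 to 2659 bp, and they covered 61.5% of its window. The first and the last of them lay across the ends of the window. EHMT2 had 4, with scores of 236, 96.9, 68.9 and 57.6, of which the first lay across the low end of the window. By peak midpoint EHMT2 had 3, at a score of at least 100 it had 1, and with 5 kb added on each side it had 7. KAT2A had 5 in the first 2 of these settings and also 7 with 5 kb added, so its lead was lost there. RFWD3, STK38 and STK38L had 1 each, with scores of 65.7, 185 and 51.2. These, and 3 of the 4 at EHMT2, are below the median of the MeDIP list of 187. Of all stretches of the same length along chromosomes 1 to 22 and X, 0.827% held at least 5 MeDIP peaks for KAT2A and 4.12% at least 4 for EHMT2. For RFWD3, STK38 and STK38L, 34.1%, 37.1% and 44.3% of stretches held at least 1, so that their counts were near the background. The MeDIP list alone also names 7 alternative haplotypes of chromosome 6, with 630 peaks, and the place of EHMT2 on these was not assigned.

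Most early ORCA peaks at KAT2A overlapped MeDIP peaks, and a smaller share did at each of the other genes. The MeDIP cover of the windows followed the same order at its upper end, with 61.5% at KAT2A and 11.6% at EHMT2. It was at most 1.22% at RFWD3, STK38 and STK38L. Whether the overlap goes beyond this cover was not tested. At KAT2A, 7 of 8 early peaks overlapped a MeDIP peak (87.5%, 95% Wilson interval 52.9 to 97.8), and MeDIP peaks took up 72.2% of the early peak bases. The exception was the highest-scoring one, which lay 492 bp from the nearest MeDIP peak. At EHMT2 it was 3 of 8 (37.5%, interval 13.7 to 69.4), the highest-scoring peak among them. The counts were 1 of 11 at RFWD3 (9.09%, interval 1.62 to 37.7), 1 of 13 at STK38 (7.69%, interval 1.37 to 33.3), where the overlap was 27 bp, and 0 of 10 at STK38L (interval 0 to 27.8). The intervals are not compared between genes, because the KAT2A peaks are nearly a continuous stretch divided by the caller. Several of them lay in the same MeDIP peak, from 40265384 to 40268042. These intervals cover counting error only, and peaks of 1 gene are not independent.
Over the 5 genes, 12 of 50 early peaks overlapped a MeDIP peak (24%, interval 14.3 to 37.4). The background was 35.3% over the whole early list and 23% over the early peaks without a mid or late overlap. The total was near the second value, which is not matched for score. Among early peaks with a score of at least 100, the share was 26.2% in the 5 windows and 59.3% over the whole list. At a score of at least 250 it was 22.2% and 56.3%. Most peaks of the whole list at these scores overlapped a mid peak, so neither background is matched for both traits. KAT2A alone gave 7 of the 12 overlapping peaks of the 5 genes. The interval at EHMT2, 13.7 to 69.4, held both 23% and 35.3%.

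The number of early peaks can be set beside stretches of the same length in the same way, as a description of how the genes were chosen. At least 8 early peaks were found in 0.00181% of stretches of the length of KAT2A and in 0.0463% of those of EHMT2. At least 11 were found in 0.149% of stretches of the length of RFWD3, at least 13 in 0.147% of those of STK38 and at least 10 in 0.386% of those of STK38L. Such stretches without any early peak made up 86.1% to 97.0% of the total. Whether the peaks fall on exons, as carry-over of cDNA would, was not tested, because no hg19 gene models were used here. The name ORCA peak refers to the immunoprecipitated sample in which a peak was called. Whether these peaks mark binding of ORCA to the genes was not tested, and no signal from the input samples was examined.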

How the data were processed

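The series holds 8 samples, of which the 4 immunoprecipitated ones had a peak list. The submitters' processing notes name Trimmomatic, Bowtie 0.12.7 and the builds GRCh37 and hg19, 2 names of 1 assembly. Caller, settings and control library: no label or header states them, and the peak names alone point to a MACS-type program. The deposited score per peak has no header and was taken as the caller's own. Per the labels, 1 list belongs to each sample.

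Only chromosomes 1 to 22 and X were analysed, and starts are printed from 1. The gene windows, members and lists were chosen with earlier results of these data known. The rule for naming took every peak in the windows and the 5 other runs with the most peaks. Stretches of equal length were laid end to end from the start of each chromosome to its last peak. The counting was tested on simulated lists. Intervals are 95% Wilson intervals. With 1 sample per group no test was run. Planned comparisons with exons and with other genes of the families were left out, since no hg19 gene models were used here. Calculations used Python 3.11.15, pandas 2.3.3 and statsmodels 0.14.6.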

Additional observations from a re-analysis of the deposited data

How the results depend on the processing

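The 50 early peaks were the same number by peak midpoint and with windows extended by 5 kb, and 42 had a score of at least 100. At that minimum the mid peaks in the windows went from 1 to 0 and the MeDIP peaks from 12 to 7. The late count was 0 in each setting. When peaks within 1 kb counted as shared, 2% of the early peaks had a mid peak, the 1 at KAT2A. The MeDIP share was 24% and ranged from 16.7% at a score of at least 100 to 36% within 1 kb. It was 18% for an overlap of 50% of the shorter peak, an alternative chosen after seeing the data. Runs in the early list numbered 10, and 276 with a minimum score of 50 and 20 with 3 or more peaks, both by the construction of a looser rule. With all sequence names, added after seeing the data, there were 12. The number of runs in the 5 windows was 5 in each of these settings. No paired analysis was possible because each group was 1 sample. Alternatives for exons were not run. Without read depth, a gene without a mid or late peak was only without a called peak.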
